A study of Mus musculus with 6 samples.

Results

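The 8 genes described here are the distal-less homeobox genes Dlx1, Dlx2, Dlx5 and Dlx6, the RNAs Dlx1as and Dlx6os1 annotated on the strand opposite to Dlx1 and Dlx6, and the glutamate decarboxylase genes Gad1 and Gad2. They were chosen by symbol from the 57010 genes of the count table, with no measured value in the rule. RNA sequencing had been carried out on 3 libraries of mouse embryonic stem cells (ESC) and 3 of cortical neurons cultured for 7 days in vitro from embryonic day 16.5 cortices. Both groups were wild type and received no treatment. The labels name no mouse strain and do not say whether the replicates were separate cultures, so p-values measure the spread between these libraries, which may be technical. The library names of neuron replicates 2 and 3 carry the word empty, which the labels do not explain.

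DLX proteins are homeodomain transcription factors. In the embryonic forebrain they are known from the ganglionic eminences, where they act in the specification and migration of GABAergic interneurons, which then enter the cortex. The genes lie in convergent pairs, Dlx1 with Dlx2 and Dlx5 with Dlx6, and each pair has a long RNA from the opposite strand. Dlx6os1 is known as an RNA that acts on the enhancers between Dlx5 and Dlx6, and Dlx1as as one that bears on Dlx1 transcript levels. Gad1 and Gad2 encode the enzymes that make the transmitter GABA from glutamate, and both are targets of DLX proteins in this lineage.

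In the neuron libraries 7 of the 8 genes had a higher CPM, the count scaled to library size, than in every ESC library, as had 24.2% of all genes with a count, and Dlx5 had no count in any library. The level was high for Dlx1as, Dlx1 and Dlx6, which had mean levels of 1048, 525 and 91.6 CPM in neurons. It was low for Gad1, Gad2, Dlx2 and Dlx6os1, with 21, 12, 6 and 5 counts summed over the 3 neuron libraries. The genes with high counts were those whose exons overlap an exon of an opposite-strand gene, apart from Dlx6os1. Since the strand setting used in counting is not given in the sources used here, a count of one of these genes cannot be told apart from a count of RNA from its opposite partner. For Dlx2, Dlx5 and Gad2, which have no gene opposite, little RNA and reads left uncounted for their strand cannot be told apart either, and the same holds for Gad1 and the unshared exons of the other members.

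The count table places Dlx1 on chromosome 2 at 71358457 to 71364325, plus strand, and Dlx1as at 71346798 to 71368252, minus strand, in GRCm39, the build in the submitters' processing notes. The 2 genes share 2339 exonic bases, which are 43.3% of the exonic bases of Dlx1 and 37.4% of those of Dlx1as. Dlx1as also shares 48 exonic bases with Metap1d, a methionine aminopeptidase gene on the plus strand. Dlx2 lies at 71373752 to 71377098, minus strand, and has no gene opposite. On chromosome 6, Dlx6 lies at 6863334 to 6868568, plus strand, and shares 104 exonic bases with the minus-strand RNA Dlx6os2. Dlx6os1 spans 6749740 to 6871632, minus strand. It covers the whole of Dlx6 but shares no exonic base with it, and 1 of its exons contains a pair of short plus-strand genes, ENSMUSG00002075275 of 180 bases and ENSMUSG00002075212 of 207 bases. Dlx5, at 6877805 to 6882085 on the minus strand, has no gene opposite. Gad1, on chromosome 2 at 70383416 to 70432358, plus strand, overlaps Gad1os in span and in no exonic base. Gad2, on chromosome 2 at 22512217 to 22583886, plus strand, has no gene opposite.

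**Figure D1:**
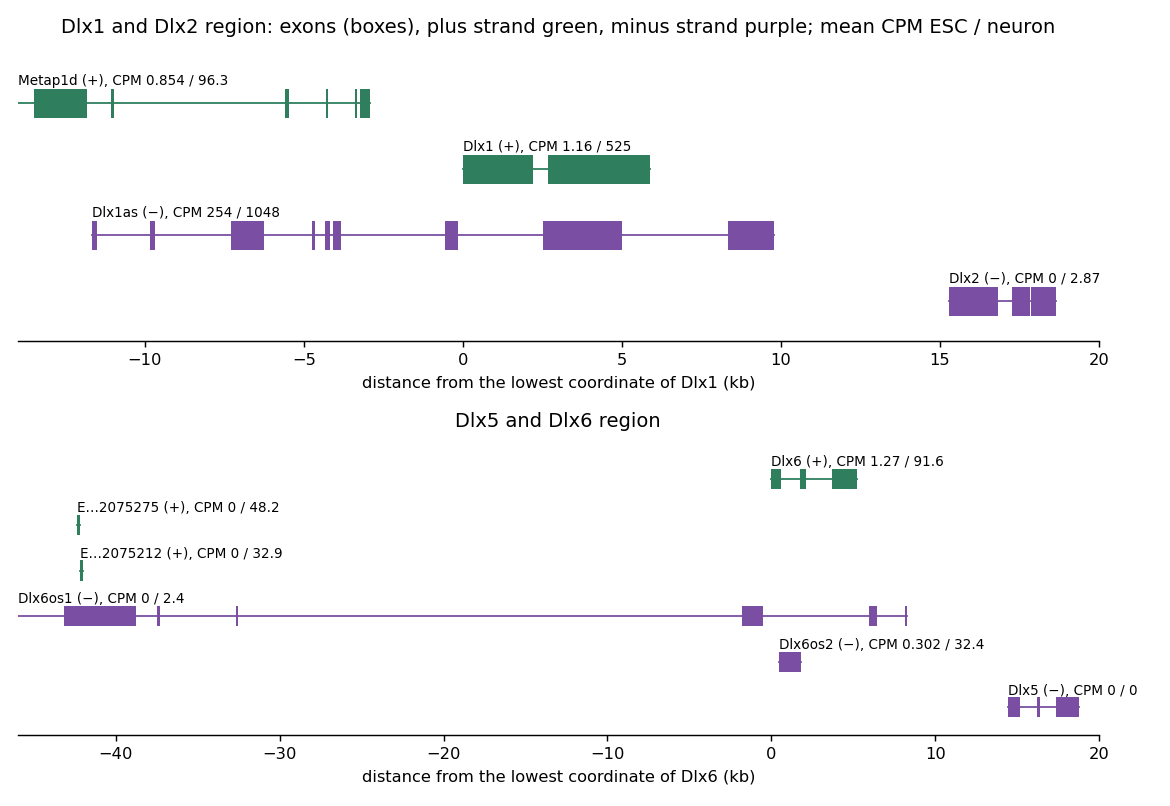
Exons (boxes) and spans (lines) of the Dlx1-Dlx2 and Dlx5-Dlx6 regions, with distance from the lowest coordinate of Dlx1 or Dlx6 in kb on the x axis, plus-strand genes in green and minus-strand genes in purple; the shortened labels starting with E are ENSMUSG00002075275 (upper) and ENSMUSG00002075212 (lower), and the numbers are mean CPM in ESC and in neurons. Dlx1 and Dlx1as, at 525 and 1048 CPM in neurons, overlap in their exons, while Dlx2, at 2.87 CPM, stands alone.

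The shared stretches of Dlx1 and Dlx6 are shown because a read from them can be given to either strand's gene. They come from GENCODE M21 transcripts of the genes. In the line of Dlx1, 40 bases of coding exon 1 in lower case are followed by exon 2 of 200 bases in capitals (chr2:71361301-71361500, GRCm39, plus strand), all of which lie in a Dlx1as exon. In the line of Dlx6, capitals mark the 104 bases shared with Dlx6os2.
Dlx1: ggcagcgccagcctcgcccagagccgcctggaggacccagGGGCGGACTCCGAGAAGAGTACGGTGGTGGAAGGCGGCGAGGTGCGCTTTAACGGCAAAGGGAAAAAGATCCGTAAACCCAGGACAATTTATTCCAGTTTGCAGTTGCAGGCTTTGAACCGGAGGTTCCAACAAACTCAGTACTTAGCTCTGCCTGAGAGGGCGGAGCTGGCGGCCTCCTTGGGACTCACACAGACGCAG
Dlx6: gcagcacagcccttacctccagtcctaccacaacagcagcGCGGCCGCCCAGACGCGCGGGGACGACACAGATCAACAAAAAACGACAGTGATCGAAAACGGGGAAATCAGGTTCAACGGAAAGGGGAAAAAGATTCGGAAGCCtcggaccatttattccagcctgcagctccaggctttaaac
In the best-matching window without gaps, 61 of 80 bases were identical between these stretches (76.3%), where the sequence enters the homeobox.

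Promoters were looked up in RefSeq's table for GRCm38.p6, from 250 bases before to 50 after a start. It held 6 promoters of 5 of the 8 genes. They were searched for TAATT on both strands (AATTA as its reverse), the core letters bound by many homeodomain proteins, with overlapping matches counted. Of the 32851 promoters in the table, 27.0% held a match. Among the 8 genes, matches were found only in both Dlx6os1 promoters, with 7 and 4 matches, and the promoters listed for Dlx1, Dlx2, Gad1 and Gad2 held none. The Dlx6os1 promoter with 7 matches (chr6:6869484-6869783, GRCm38.p6, minus strand) is printed with the matches in capitals.
Dlx6os1: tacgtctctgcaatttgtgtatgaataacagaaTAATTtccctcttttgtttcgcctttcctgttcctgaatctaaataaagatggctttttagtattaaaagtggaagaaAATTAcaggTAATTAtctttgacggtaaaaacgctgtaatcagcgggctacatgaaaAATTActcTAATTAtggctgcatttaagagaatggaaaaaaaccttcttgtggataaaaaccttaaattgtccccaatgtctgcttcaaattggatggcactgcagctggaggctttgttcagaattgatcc
A match is a description of the letters and does not show binding.

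The libraries held 1368303 to 1775055 counts in ESC and 513425 to 624792 in neurons. A count of 0 allowed up to 3 counts per library, equal to 2.26 to 2.90 CPM in ESC and 3.92 to 4.81 CPM in neurons, and these limits and the intervals below cover counting error only. The genes with an exon opposite another gene's exon were 16.8% of all genes and held 90.9 to 91.9% of the counts in ESC and 88.5 to 89.4% in neurons. Defining markers followed the labels only in part. The neuronal tubulin gene Tubb3 had ESC counts of 10, 4 and 8 and neuron counts of 4, 2 and 1, whereas the neurofilament gene Nefm rose from 137 to 1125 CPM. Nefm shares 1108 exonic bases with Nefl on the opposite strand, so its counts carry the same strand limit. Nefl itself had ESC counts of 9, 9 and 13 and neuron counts of 4, 6 and 4. The pluripotency factor Pou5f1 had 51, 29 and 43 counts in ESC and none in neurons. The 15 pan-neuronal markers summed to 1107 to 1362 CPM in neurons, against 9159 to 9580 CPM for the 4 genes whose exons lie opposite them. Most of the markers' own sum was Nefm, at 1006 to 1247 CPM, and most of the opposite sum was Gm11149, opposite Ncam1, at 6301 to 6545 CPM. The 15 pluripotency markers summed to 237 to 316 CPM in ESC, against 20488 to 20772 CPM for 3 opposite genes. Most of that opposite sum was Gm19553, opposite Pou5f1, at 13511 to 14161 CPM. The part of such counts on opposite genes in the values below was not tested.

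Dlx1 had ESC counts of 1, 0 and 3 and neuron counts of 471, 319 and 303. All 3 neuron libraries were far above the ESC libraries, with no overlap. The level was 1.16 ± 1.40 CPM in ESC and 525 ± 77.6 CPM in neurons (SD, n = 3 each), and the ratio of pooled counts was 459.7 (95% interval 179 to 1690). The log2 fold change was 8.67 ± 0.29 (SE), with an adjusted p of 6.45e-26 in edgeR's quasi-likelihood test (Benjamini-Hochberg).

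Dlx1as differed from Dlx1 in having many counts in both groups, with 332, 251 and 297 in ESC and 902, 625 and 646 in neurons. The ESC level was 254 ± 13.4 CPM and the neuron level 1048 ± 123 CPM (SD, n = 3 each), again with no overlap. The log2 fold change of 2.05 ± 0.11 (SE) had an adjusted p of 7.05e-19 in edgeR, and the ratio was 4.15 (3.84 to 4.50). The row of Dlx1as was thus the one among the members with a clear level in ESC. The strand of the RNA behind these counts cannot be told apart, as stated above.

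Dlx6, the plus-strand gene of the other pair, had ESC counts of 0, 3 and 1 and neuron counts of 68, 55 and 65. The neuron libraries lay close together, at 91.6 ± 11.4 CPM, against 1.27 ± 1.48 CPM in ESC (SD, n = 3 each). The log2 fold change was 6.15 ± 0.42 (SE), with an adjusted p of 2.93e-16 in edgeR and a ratio of 79.1 (30.4 to 293).

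These 3 genes were the members that passed the filter on low counts, and all 3 were called higher, where 47.0% of the 7150 tested genes were called higher in neurons. All 3 were also past a 2-fold change in edgeR's glmTreat test, against 38.0% of tested genes called past 2-fold and higher. Dlx1 and Dlx6 passed the filter only through their neuron counts, so a call in that direction was close to fixed for them and nothing is read from the count of 3. The median log2 fold change over all tested genes was 0.37. With scaling by total counts that median moved up by 0.73 on the log2 scale and the share of calls that were higher moved from 54.9% to 65.5%, while the 3 genes stayed higher.

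Dlx2, the partner of Dlx1 in its cluster, had no count in ESC and 3, 1 and 2 counts in neurons. Its neuron level was 2.87 ± 1.25 CPM (SD, n = 3). Dlx5 had no count in any of the 6 libraries, which allows up to 0.865 CPM over the ESC group and 1.46 CPM over the neuron group for the reads the table counts, whichever strand they came from. Dlx6os1 had no count in ESC and 2, 2 and 1 in neurons, at 2.40 ± 0.713 CPM (SD, n = 3). Each of these neuron levels was within the limit that a count of 0 allows in a library, and none of the 3 genes had enough counts to enter the main test.

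Gad1 had ESC counts of 3, 0 and 0 and neuron counts of 12, 2 and 7, so neuron replicate 2 overlapped ESC replicate 1 in counts but not in CPM. The levels were 0.753 ± 1.30 and 9.95 ± 6.43 CPM (SD, n = 3 each), with a ratio of 11.8 (3.52 to 61.7). Gad2 had ESC counts of 0, 1 and 0 and neuron counts of 5, 6 and 1, with 0.322 ± 0.559 and 5.69 ± 3.74 CPM (SD, n = 3 each) and a ratio of 20.2 (2.99 to 863). These levels rest on 21 and 12 neuron counts, and the intervals of the ratios are wide. In edgeR without a count filter, adjusted p was 0.000168 for Gad1, 0.00252 for Gad2, 0.0188 for Dlx2 and 0.0364 for Dlx6os1. In that fit 7 of the 8 genes were called higher, against 21.2% of the 28820 genes with a count. Of those genes, 24.2% had every neuron library above every ESC library in CPM, as did the same 7.

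**Figure D2:**
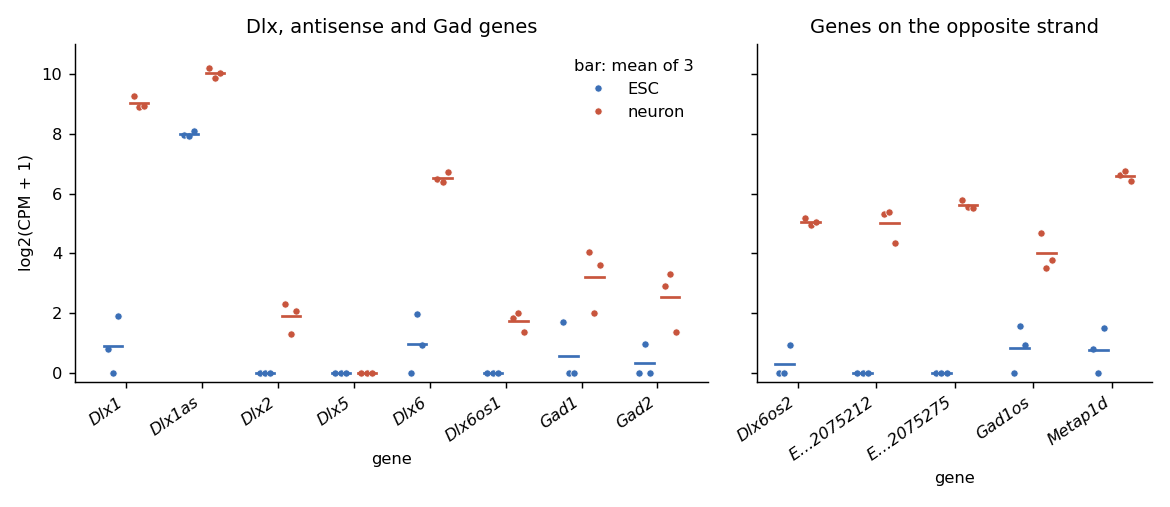
Level of the 8 genes (left) and of their opposite partners (right) as log2(CPM + 1) on the y axis, with a point for each of 3 ESC and 3 neuron libraries and a bar at the group mean of the log2 values; shortened labels starting with E are ENSMUSG00002075212 and ENSMUSG00002075275. Dlx1as is high in both groups (254 and 1048 CPM on average), Dlx1 and Dlx6 are near 0 in ESC and at 525 and 91.6 CPM in neurons, and Dlx5 is at 0 throughout.

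Levels between genes were compared per kilobase of exon. In neurons the order was Dlx1as at 168 ± 19.7 CPM per kb, Dlx1 at 97.3 ± 14.4, Dlx6 at 38.6 ± 4.79, Gad1 at 1.30 ± 0.842, Dlx2 at 1.01 ± 0.437, Gad2 at 0.968 ± 0.636 and Dlx6os1 at 0.297 ± 0.0884 (SD, n = 3 each), with Dlx5 at 0. The 3 highest did not overlap each other or the rest, whereas the ranges of Gad1, Dlx2 and Gad2 overlapped. In ESC, Dlx1as stood at 40.6 ± 2.15 CPM per kb and each other member was below 1.

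**Figure D3:**
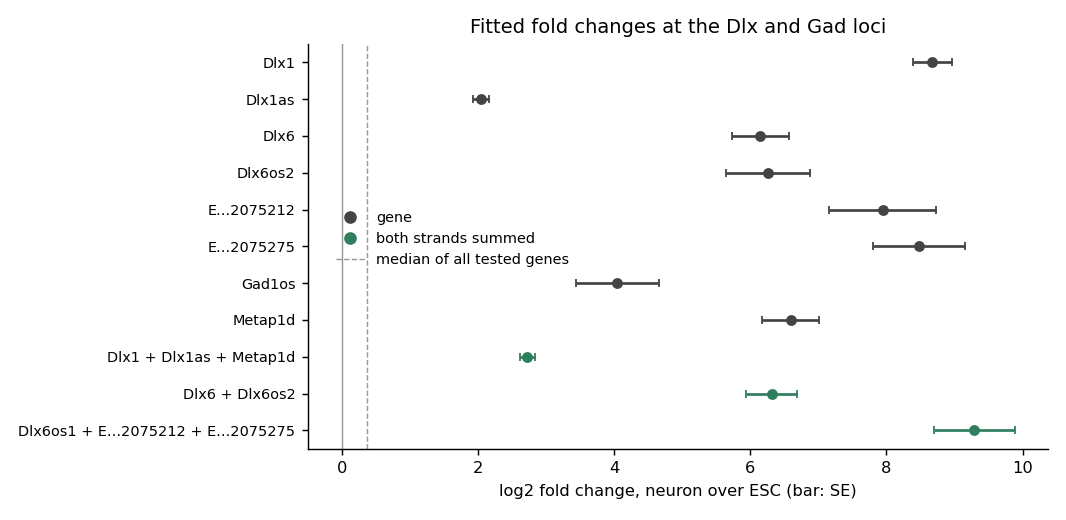
Log2 fold change of neurons over ESC on the x axis, with its standard error as a bar, for single genes (dark) and loci with both strands summed (green) that entered the edgeR test; the dashed line is the median of all tested genes, 0.37, and values of genes without an ESC count (the labels starting with E and the Dlx6os1 locus) depend on the prior count. Dlx1 (8.67) lies above Dlx6 (6.15) and Dlx1as (2.05), and the summed Dlx1, Dlx1as and Metap1d locus lies at 2.73.

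The partners on the opposite strand were high in neurons as well. Metap1d had ESC counts of 1, 0 and 2 and neuron counts of 74, 72 and 53, with a log2 fold change of 6.59 ± 0.42 (SE; adjusted p 3.71e-17, edgeR). Dlx6os2 had ESC counts of 0, 0 and 1 and neuron counts of 27, 20 and 20, with a log2 fold change of 6.26 ± 0.62 (SE; adjusted p 1.14e-11, edgeR). The neuron libraries of both lay close together and far above ESC. Both genes passed the filter only through their neuron counts, so a call in that direction was close to fixed for them.

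The short genes inside the Dlx6os1 exon had no count in ESC. ENSMUSG00002075275 had 41, 31 and 28 counts in neurons and was at least 56.1-fold higher (adjusted p 7.25e-14, edgeR). ENSMUSG00002075212 had 30, 27 and 12 and was at least 38.7-fold higher (adjusted p 2.10e-11, edgeR). Dlx6os1 itself, with 8069 exonic bases, had 5 counts over the same libraries in which these genes of 180 and 207 bases had 100 and 69. Gad1os had ESC counts of 0, 2 and 1 and neuron counts of 19, 7 and 8, with a log2 fold change of 4.05 ± 0.61 (SE; adjusted p 1.66e-07, edgeR). Gad1os and the short genes also passed the filter only through their neuron counts. Their calls were as close to fixed, and 47.0% of all tested genes were called higher in neurons. Nothing is read from the number of partners called.

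The division of counts within a pair was then compared between groups. Dlx1 took 0.300%, 0% and 1.00% of the counts of Dlx1 and Dlx1as in ESC, and 34.3%, 33.8% and 31.9% in neurons. The mean share rose from 0.433 ± 0.513% to 33.3 ± 1.25% (SD, n = 3 each) without overlap, although the exact two-sided permutation test over libraries gave p = 0.1, the smallest that 3 against 3 allows. The Clopper-Pearson intervals ran up to 2.89% in the ESC libraries and down to 29.0% in the neuron libraries.

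Dlx6 took 71.6%, 73.3% and 76.5% of the counts of Dlx6 and Dlx6os2 in neurons, a mean of 73.8 ± 2.48% (SD, n = 3). The ESC libraries had 0, 3 and 2 counts for that pair, too few to give a share. Dlx6os1 took a mean of 4.72 ± 1.31% (SD, n = 3) against ENSMUSG00002075275 in neurons, so here the counts fell on the short plus-strand gene. Gad1 took 38.7%, 22.2% and 46.7% against Gad1os, and the intervals of these libraries overlapped widely. These shares say on which row of the table the counts fell, not from which strand the RNA came.

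**Figure D4:**
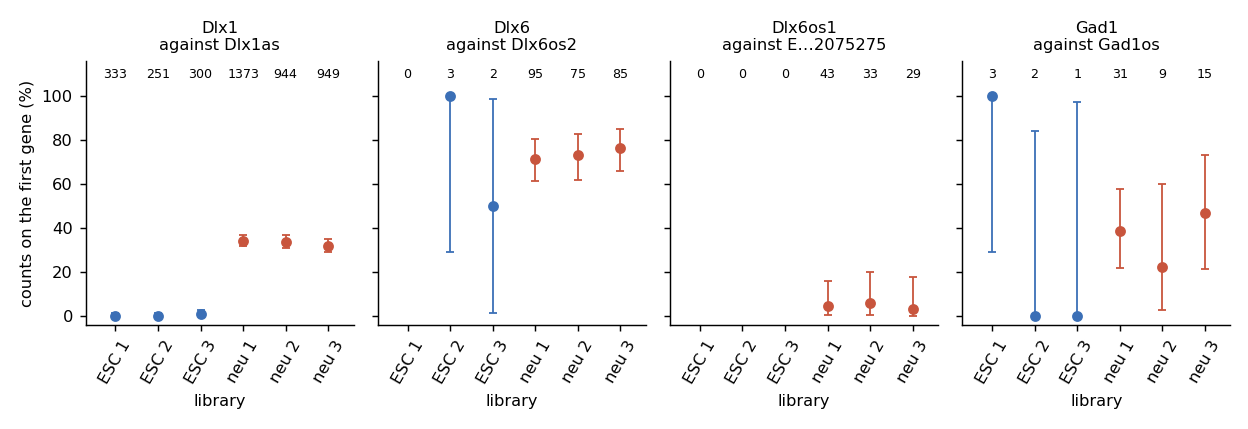
Share of a pair's counts on the first-named gene, in percent, in each library, with the 95% Clopper-Pearson interval and the pair's total count above each point; the shortened label starting with E is ENSMUSG00002075275, and neu is neuron. Dlx1 moves from at most 1.00% in ESC to between 31.9% and 34.3% in neurons.

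Counts were summed over genes joined by shared exonic bases. For reads in the shared bases the sum is the same whichever gene of the pair they were given to, but reads from the unshared exons still depend on the strand setting. The locus of Dlx1, Dlx1as and Metap1d had ESC counts of 334, 251 and 302 and neuron counts of 1447, 1016 and 1002. Its log2 fold change was 2.73 ± 0.11 (SE; adjusted p 8.80e-21, edgeR), and the ratio was 6.57 (6.10 to 7.08). The locus of Dlx6 and Dlx6os2 had ESC counts of 0, 3 and 2 and neuron counts of 95, 75 and 85, with a log2 fold change of 6.31 ± 0.38 (SE; adjusted p 4.86e-16, edgeR). The locus of Dlx6os1 and its short partners had none in ESC and 73, 60 and 41 in neurons, at least 97.6-fold higher (adjusted p 9.92e-15, edgeR). All 3 joined loci were called higher with the strands together, where 48.0% of the 5562 tested loci were. The loci of Dlx6 and Dlx6os1 passed the filter only through their neuron counts. A call in that direction was close to fixed for them, and nothing is read from the count of 3.

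Of the nearest genes outside the clusters, none that entered the main test was called higher. The 6 nearest genes outside the Dlx5-Dlx6 cluster, 3 on each side, had no count in any library. Gm13647, 191061 bases from the Dlx1-Dlx2 cluster, fell from 56, 29 and 42 counts in ESC to 1, 0 and 1 in neurons (log2 fold change -5.04). Itga6, which encodes an integrin subunit, lies 198862 bases from that cluster. It had ESC counts of 35, 21 and 22 and neuron counts of 0, 5 and 0 and was also called lower (log2 fold change -3.13). Hat1, 74832 bases away on the other side, had ESC counts of 12, 5 and 20 and neuron counts of 1, 0 and 1. It did not enter the main test. Near Gad1, Gorasp2, a Golgi stacking gene, was called lower at a log2 fold change of -1.92. In edgeR without a count filter, Erich2, 12188 bases from Gad1, was called higher (adjusted p 0.00724), on 3, 6 and 5 neuron counts. Beside Gad2, Gm13340 (0.0190) and Gm13339 (0.0364) were called higher in that fit. Hat1, Gm13647, Itga6, Gm26558 and Gorasp2 were called lower there. Over all genes with a count, 21.2% were called higher in that fit.

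Among the other transcription factors of GABAergic development, 8 of 24 were tested, 6 of them higher and 1 lower, against 47.0% of all tested genes called higher. Most of the 6 had almost no ESC counts and entered the test through their neuron counts, so the share is a description only. Zeb2, a regulator of interneuron migration, had no count in ESC and 57, 33 and 43 in neurons, at least 74.6-fold higher. Nr2f1, an orphan nuclear receptor, had ESC counts of 0, 0 and 1 and neuron counts of 49, 30 and 29 (log2 fold change 6.94).

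Satb1 (5.72), Meis2 (5.25) and Sp8 (3.76) rose too on the log2 scale. Sp9, a zinc finger factor that works with Sp8, was called lower, with 420, 318 and 347 counts in ESC and 90, 86 and 79 in neurons (-1.33). Sp9 shares 270 exonic bases with Cir1 on the opposite strand, which was also called lower (-1.77). As for the members, the counts of this pair cannot be assigned to a strand's RNA. Npas1 did not pass, at 0.40 (adjusted p 0.307, edgeR). Nkx2-1 and Lhx6, which act in the medial ganglionic eminence, had 1, 0 and 0 counts and no count in the neuron libraries.

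The genes of GABA synthesis, transport and breakdown were mixed. Of 9, 4 were tested, 2 were higher, 1 was lower and 1 did not pass, a share of higher calls close to the 47.0% over all tested genes. Abat, which breaks GABA down, rose by 2.99 on the log2 scale. Gphn, the scaffold of inhibitory synapses, was lower at -1.89. The vesicular GABA transporter gene Slc32a1 had ESC counts of 3, 1 and 0 and neuron counts of 2, 1 and 5.

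None of the 22 interneuron subtype markers had enough counts to be tested. Pvalb, Vip and Npy had no count in any library, and Sst had 3, 0 and 0 counts in neurons. The list summed to 12.6 to 15.8 CPM in ESC and 20.8 to 34.3 CPM in neurons. The 2 genes whose exons lie opposite its members were both called higher and summed to 5.80 to 14.5 CPM in ESC and 431 to 461 CPM in neurons. Of the other Dlx genes, Dlx3 had no count and Dlx4 had 1, in ESC replicate 2.

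Markers of other cells were called in both directions. Of 20 excitatory cortical neuron markers, 6 were tested, 5 of them higher and 1 lower, and the list summed to 253 to 291 CPM in neurons against 82.3 to 83.2 CPM in ESC. The vesicular glutamate transporter gene Slc17a7 was the one called lower (log2 fold change -4.93). Of 10 astrocyte markers 1 was tested and higher, with the list at 54.5 to 87.4 CPM in neurons against 5.80 to 10.9 CPM in ESC. Of 8 oligodendrocyte markers 2 were higher and 1 lower, and of 10 microglial and vascular markers 2 were lower, neither of them called with scaling by total counts. Over all tested genes 47.0% were called higher. Of the excitatory markers 10 of 20, and of the astrocyte markers 6 of 10, had no count in ESC. Such genes could enter the test only through their neuron counts, so these numbers of calls are a description only. In bulk RNA, fewer cells of a type and less RNA per cell cannot be told apart, and the part of these cells in the levels of the Dlx and Gad genes was not tested.

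**Figure D5:**
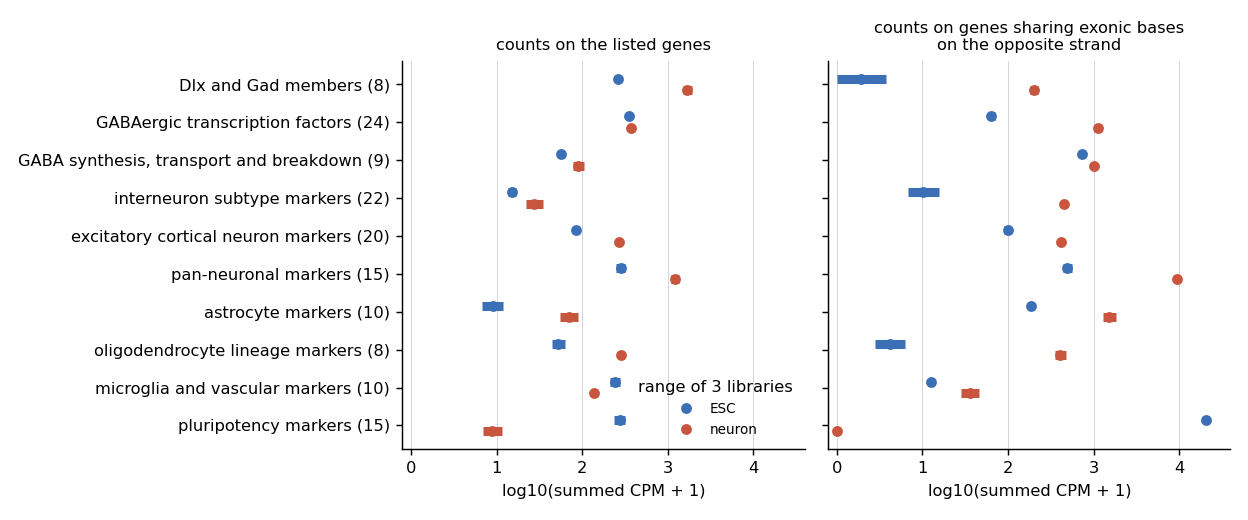
Summed level in CPM of the genes of each list on their own rows and of the genes whose exons lie opposite them, as log10(summed CPM + 1) on the x axis, with a bar for the range of 3 libraries and a point within it; the number of genes in each list is in parentheses. For pan-neuronal markers in neurons the opposite genes sum to 9159 to 9580 CPM and the markers themselves to 1107 to 1362 CPM.

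Among the 5 tested genes nearest to Dlx1as by Euclidean distance between centred log2 CPM profiles over the 6 libraries were Gm17041 (distance 0.170), Igsf6 (0.239), Nqo2 (0.250) and Atg16l2 (0.252). Their log2 fold changes ran from 2.05 to 2.54, none below the 2.05 of Dlx1as. The batch entry in the sample labels takes 1 value per group, so batch and cell type cannot be told apart in any of these comparisons.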

How the data were processed

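The authors deposited raw counts per gene, with positions, strand and gene length in bases as another deposited column. Per the submitters' processing notes, cutadapt, STAR and RSEM were used with GRCm39 (mm39). The column names in the table are those of STAR alignment files. The counting tool, its strand setting and all versions are not given in the sources used here. Samples were grouped by title, and columns matched by library name.

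Symbols came from GENCODE M21 by identifier for 91.3% of 57010 genes. Counts were fitted with edgeR 4.0.16 (TMM, filterByExpr with a minimum count of 10, glmQLFit robust, glmQLFTest, glmTreat at 2-fold) in R 4.3.3, over all 6 libraries without covariates, with Benjamini-Hochberg adjustment over all tested genes and a threshold of 0.05. CPM used TMM-scaled library sizes. Standard errors are the log2 fold change over the square root of F. Loci joined genes sharing at least 1 exonic base on opposite strands (bedtools 2.31.1). Ratios of pooled counts have exact conditional 95% intervals. A ratio against a group with no count is a bound at 3 counts over that group.

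The text names the 8 members, genes overlapping them on the opposite strand, the 3 nearest genes on each side, genes of the lists that passed or define a cell type, and the 5 nearest profiles. Some genes meeting this rule are not reported here. Members and lists were chosen with earlier results of these data known. On simulated counts for 7150 genes with 200 changed 4-fold, 89.5% were called and 3.24% of calls were false. In the data 85.6% of tested genes were called, and a change that widespread was not simulated, so these rates may not carry over. Replicates differed by more than counting noise. Alternatives were DESeq2 1.42.0, limma-voom 3.58.1, other scalings and filters, a replicate block, each library left out, and, chosen after seeing the data, a test of only those genes that share no exonic base with another strand.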

Additional observations from a re-analysis of the deposited data

How the results depend on the processing

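Dlx1, Dlx1as and Dlx6 kept their direction and their call in 14 alternatives each, at log2 fold changes of 8.14 to 9.77, 1.88 to 2.78 and 5.43 to 7.32, and so did the joined loci of Dlx1 (2.57 to 3.43), Dlx6 (5.59 to 6.99) and Dlx6os1 (7.61 to 9.77). The largest adjusted p among these alternatives was 1.97e-06, for Dlx6. Without a count filter, 11762 genes were called in place of 6119, 9129 in place of 4818 past 2-fold, and 7 members in place of 3. When only genes that share no exonic base with another strand were tested, chosen after seeing the data, 1950 genes were called and 1630 past 2-fold. No member was called there: Dlx1, Dlx1as, Dlx6 and Dlx6os1 are outside it by construction, and the others had too few counts to be tested, so there is no unadjusted p to give. Leaving out each library in turn gave 5430 to 7353 called genes, 4294 to 5862 past 2-fold and 3 to 4 members. The fourth member was Gad1, without neuron replicate 2, at a log2 fold change of 3.73. Per kilobase of exon, the neuron share of Dlx1 was 36.8% and that of Dlx6 61.5%.

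The replicate numbers did not pair the libraries: same-numbered libraries correlated at 0.019, 0.0039 and -0.022 in their deviations from the group means. With the replicate block, 6088 genes were called, 4781 past 2-fold and 3 members.

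At this depth the few counts of Dlx2, Dlx6os1, Gad1 and Gad2 give wide counting errors, and a level of Dlx5 under the limit of a count of 0 was not detectable.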

Other observations

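Several other genes of GABAergic neurons had fewer neuron counts on their own row than on an antisense gene sharing exonic bases with them. The pattern was not particular to them: Pou5f1 in ESC lay far below Gm19553 opposite it (18559, 13967 and 15649 counts). Some listed GABAergic factors went the other way in neurons, as Sp9 against Cir1 and Satb1 against Gm6934. The genes named below were chosen after their values were seen. Gm14205 shares 697 exonic bases with Slc32a1, the vesicular GABA transporter gene, and had ESC counts of 0, 0 and 1 and neuron counts of 158, 81 and 106 (log2 fold change 8.61 ± 0.45 SE, adjusted p 9.33e-20, edgeR). Gm10475 shares 246 exonic bases with Reln, the gene of the secreted protein reelin. It had ESC counts of 0, 1 and 1 and neuron counts of 289, 259 and 227 (9.04 ± 0.31 SE, adjusted p 1.15e-25, edgeR), while Reln had 1, 0 and 3 and then 1, 2 and 2. Gm14205 and Gm10475 passed the filter only through their neuron counts, so a call in that direction was close to fixed.

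Zeb2os, opposite Zeb2, had ESC counts of 1, 0 and 1 and neuron counts of 219, 162 and 185. A830082K12Rik, opposite Nr2f1, had ESC counts of 5, 3 and 0 and neuron counts of 536, 416 and 406. Both antisense genes had more neuron counts than the factor they lie opposite to, in each of the 3 libraries. Gm15655, opposite the factor gene Maf, had none in ESC and 79, 58 and 62 in neurons. The strand of the RNA behind these counts cannot be told apart from the table.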
